A study of Mus musculus with 6 samples.

Results

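Transcript levels of 9 Hedgehog pathway genes were examined in mouse skin: the ligand Shh, the receptor Ptch1, the coreceptors Gas1 and Boc, the ligand-binding inhibitor Hhip, the signal transducer Smo and the transcription factors Gli1, Gli2 and Gli3. They were taken by gene symbol, and all 9 were found among the 33308 genes of the deposited table. The RNA-seq libraries came from 3 skin samples of untreated control mice and 3 of mice given osimertinib for 42 days, a drug that inhibits the epidermal growth factor receptor and is used against lung cancer. The study's stated interest was skin problems under the drug. Strain, age, sex, dose and body site are not stated in the labels, nor is it said that each sample was taken from its own animal. The p-values therefore cover the variation among these 6 samples, part of which may be technical.

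Hedgehog ligands bind the receptor Patched and thereby release Smoothened, which acts at the primary cilium and turns Gli proteins into activators of transcription. Gli1, Ptch1 and Hhip are themselves transcribed in response, so that the pathway both amplifies and restrains itself. In skin, Shh is made by the epithelium of developing and growing hair follicles and is received by neighbouring epithelial cells and by the dermal papilla, the group of mesenchymal cells at the base of the follicle.

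Library totals lay between 54112624 and 60719064 counts. Keratinocyte markers were present at high levels in all libraries: 4 of them, Krt5 and Krt14 included, summed to between 2973 and 13491 FPKM (fragments per length of transcript and sequencing depth, a level per gene length). The skin pieces differed in other tissue. The summed level of 5 skeletal muscle markers was 52.8 FPKM in control 3, against 7802 and 24785 FPKM in controls 1 and 2 and 9129 to 14483 FPKM in treated skin. Control 3 thus stood apart from the other 5 libraries. Where the log2 fold change of a named gene changed sign without control 3, it is given with and without that library.

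Treated skin held more transcript of the ligand Shh, of the responsive genes Gli1, Ptch1 and Hhip, and of Gli2 and Gli3 in every library than any control, whereas Smo, Gas1 and Boc overlapped between the groups. None of these differences passed the adjusted threshold of 0.05 in edgeR's quasi-likelihood test, which called 0 of the 9 genes, as it called 0 of all 13498 genes tested (0%). At an unadjusted p under 0.05, edgeR counted 1883 of all genes (14%), 975 of them higher in treated skin (7.22%), and DESeq2 called 858 at an adjusted p under 0.05 (6.36%), 460 of them higher (3.41%). Of the 8 members that passed the filter of a mean of at least 1 FPKM, 4 were higher at an unadjusted p under 0.05 in edgeR (Ptch1, Gli1, Gli2 and Gli3), 3 were called higher by DESeq2 (Ptch1, Gli1 and Gli2) and 5 had every treated library above every control, which 11.3% of all genes tested had (9.38% had every treated library below every control). No member was lower by any of these rules. Hhip did not pass the filter and was fitted among the 19865 genes kept by edgeR's filterByExpr, where it too was higher in every treated library (10.6% of those genes were), had an unadjusted p under 0.05 (6.92% higher) and was called higher by DESeq2 (2.98%). The mean behind the filter includes the treated libraries. Shh and Gli3 passed only through them, with control means of 0.369 and 0.825 FPKM. These counts therefore describe the members and are not support for a shared change.

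**Figure D1:**
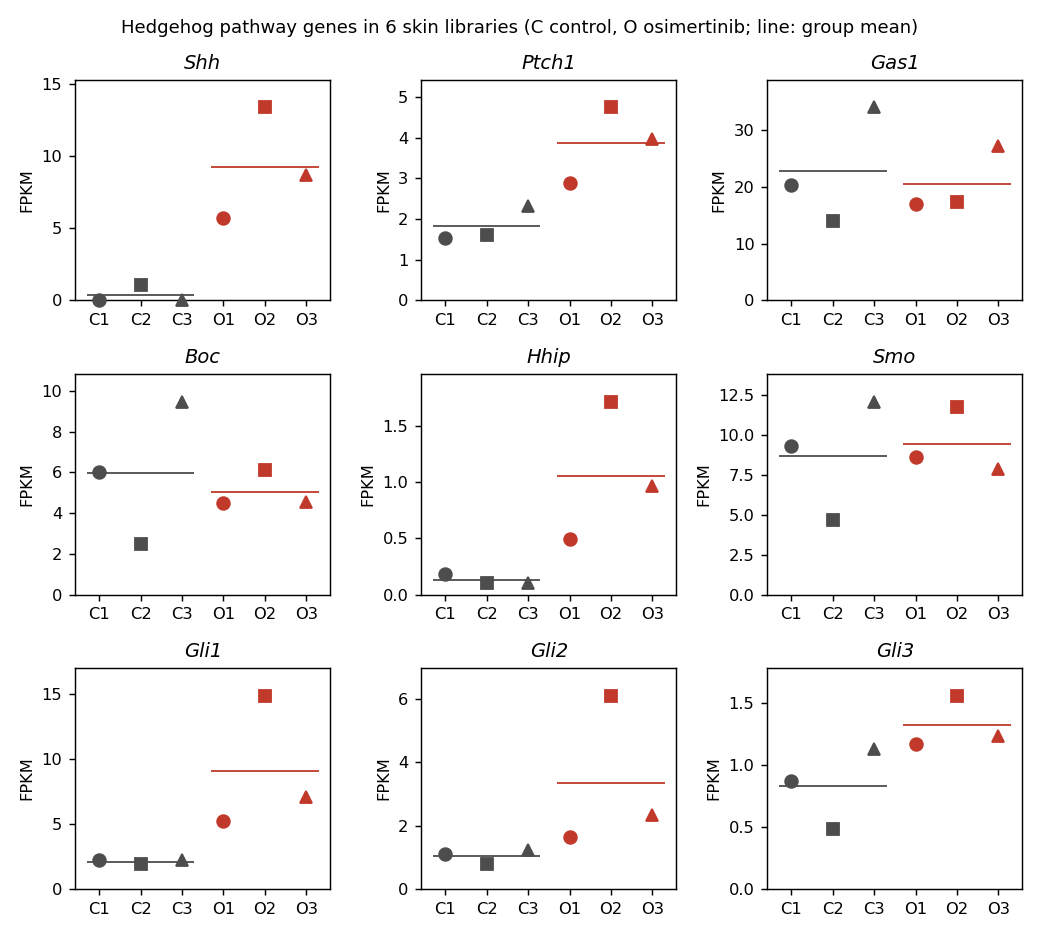
Level of each of the 9 Hedgehog genes in FPKM (vertical axis, from 0) in controls 1 to 3 (C1 to C3, grey) and osimertinib samples 1 to 3 (O1 to O3, red), with lines at the group means. In Shh, Ptch1, Hhip, Gli1, Gli2 and Gli3 all red points lie above all grey points, while in Gas1, Boc and Smo the groups overlap.

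Shh transcript was at or near 0 in controls 1 and 3 and low in control 2. Shh (ENSMUSG00000002633, minus strand of chromosome 5, 28456815 to 28467256 on GRCm38) had 0, 206 and 4 counts in controls 1, 2 and 3, and 1136, 2667 and 1747 counts in osimertinib samples 1, 2 and 3. Per gene length this was 0, 1.09 and 0.0197 FPKM against 5.75, 13.4 and 8.68 FPKM. Control 2 was the only control with more than a few Shh reads, and the lowest treated library still held more than 5 times its count. In CPM (counts relative to library size, scaled by TMM), osimertinib 1 was at 19.6 and control 2 at 4.55. The 0 counts of control 1 allow up to 3 counts, or 0.0548 CPM, a limit for counting error alone. The group means were 1.54 ± 2.61 CPM for the controls and 29.9 ± 11.1 CPM after osimertinib (SD, n = 3 each), a 19.4-fold ratio, with a log2 fold change of 4.30 ± 1.79 (SE; adjusted p = 0.36 in edgeR and 0.275 in DESeq2). The wide error follows the spread among controls: without control 2 the log2 fold change was 9.74 ± 0.95 (adjusted p = 0.0765 in edgeR), a size that depends on the small constant the fit adds to counts, because the remaining controls held 0 and 4 counts.

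The other Hedgehog ligands were low and not higher in treated skin. Ihh, which acts mainly in cartilage and bone growth, had 16, 31 and 26 counts in controls and 10, 33 and 25 in treated skin (log2 fold change −0.32 ± 0.61 by edgeR with filterByExpr). Dhh, the ligand made by Schwann cells of peripheral nerves, had 98, 102 and 94 counts in controls against 69, 68 and 34 in treated skin, lower in each treated library (−0.96 ± 0.42, adjusted p = 0.396 in edgeR).

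Of the receptor Ptch1 and the coreceptors Gas1 and Boc, Ptch1 was the one whose groups did not overlap. Ptch1 (ENSMUSG00000021466, chromosome 13, 63508328 to 63573460, minus strand), the receptor that holds Smoothened inactive until ligand binds and is itself a target of the pathway, stood at 1.54, 1.61 and 2.31 FPKM in controls 1, 2 and 3 and at 2.89, 4.74 and 3.98 FPKM in osimertinib samples 1, 2 and 3. Its mean was 31.2 ± 5.08 CPM for the controls and 62.5 ± 12.3 CPM after osimertinib (SD, n = 3 each), a log2 fold change of 1.001 ± 0.22 (SE; adjusted p = 0.204 in edgeR and 0.00861 in DESeq2). The lowest treated library was above the highest control. The SD was larger among the treated libraries, around a mean that was 2.00 times that of the controls.

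Gas1 and Boc, cell surface proteins that bind the ligand together with Ptch1 and raise the response to it, showed no such separation. Gas1 (ENSMUSG00000052957, chromosome 13, 60174405 to 60177365, minus strand) was at 20.2, 14.0 and 33.9 FPKM in controls and 16.9, 17.2 and 27.1 FPKM in treated skin. Boc (ENSMUSG00000022687, chromosome 16, 44485049 to 44558897, minus strand) was at 6.01, 2.49 and 9.48 FPKM in controls and 4.48, 6.14 and 4.56 FPKM in treated skin. In FPKM, the highest and the lowest library of both genes were controls 3 and 2. In CPM, the lowest Gas1 library was osimertinib 2 (55.5 CPM, against 60.9 CPM in control 2). The log2 fold changes were −0.19 ± 0.30 for Gas1 and −0.25 ± 0.36 for Boc, within their errors. Without control 3, the library nearly free of muscle, the log2 fold changes were 0.09 ± 0.26 and 0.13 ± 0.31.

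Hhip, a membrane protein that binds and sequesters ligand and is made in response to it (ENSMUSG00000064325, chromosome 8, 79965851 to 80058006, minus strand), was the member with the lowest level. It had 106, 62 and 65 counts in controls 1, 2 and 3 and 310, 1090 and 618 counts in osimertinib samples 1, 2 and 3, or 0.183, 0.101 and 0.106 FPKM against 0.492, 1.72 and 0.962 FPKM. The lowest treated library held nearly 3 times the counts of the highest control. The means were 1.44 ± 0.46 and 10.8 ± 5.85 CPM (SD, n = 3 each), a 7.48-fold ratio and a log2 fold change of 2.92 ± 0.51 (SE; adjusted p = 0.163 in edgeR and 5.26e-06 in DESeq2, both over the filterByExpr genes).

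Smo, the transducer that the receptors control (ENSMUSG00000001761, chromosome 6, 29735503 to 29761365, plus strand), was at 9.33, 4.66 and 12.1 FPKM in controls and 8.60, 11.8 and 7.84 FPKM in treated skin. In FPKM the treated values lay inside the range of the controls, while in CPM osimertinib 2 (72.0) lay just above control 3 (71.7). The log2 fold change was 0.08 ± 0.27 (adjusted p = 0.955 in edgeR). The estimate changed sign without control 2 (−0.12 ± 0.21) and without osimertinib 2 (−0.07 ± 0.30), so no direction can be given for Smo.

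The Gli transcription factors were all higher in each treated library, by different amounts. Gli1 (ENSMUSG00000025407, chromosome 10, 127329882 to 127341974, minus strand), the activator whose transcript serves as the usual readout of Hedgehog signalling, was at 2.20, 1.89 and 2.22 FPKM in controls 1, 2 and 3. In osimertinib samples 1, 2 and 3 it was at 5.22, 14.9 and 7.11 FPKM. The controls were nearly equal, while the treated libraries spread over almost a 3-fold range with osimertinib 2 on top. The means were 12.8 ± 1.09 and 51.0 ± 26.4 CPM (SD, n = 3 each), with a log2 fold change of 2.00 ± 0.38 (SE; adjusted p = 0.186 in edgeR and 0.000235 in DESeq2), or 1.50 ± 0.21 without osimertinib 2.

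Gli2, the main activator formed from existing protein when Smoothened is released (ENSMUSG00000048402, chromosome 1, 118834132 to 119053619, minus strand), was at 1.11, 0.782 and 1.22 FPKM in controls and 1.64, 6.09 and 2.33 FPKM in treated skin. Here osimertinib 2 carried much of the difference. The log2 fold change was 1.60 ± 0.47 with all libraries (adjusted p = 0.269 in edgeR and 0.0321 in DESeq2) and 0.90 ± 0.24 without osimertinib 2 (adjusted p = 0.51 in edgeR).

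Gli3, which acts mainly as a repressor in the absence of ligand (ENSMUSG00000021318, chromosome 13, 15463235 to 15730026, plus strand), was at 0.868, 0.485 and 1.12 FPKM in controls and 1.16, 1.55 and 1.23 FPKM in treated skin. The groups did not overlap, but control 3 and osimertinib 1 were almost equal in FPKM. In CPM these 2 libraries were at 11.4 and 13.4. The log2 fold change of Gli3 was 0.63 ± 0.25 (SE; adjusted p = 0.343 in edgeR and 0.122 in DESeq2). Over all 9 members the median log2 fold change was that of Ptch1, with 7 positive and 2 negative, beside −0.05 over the 13498 genes tested.

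**Figure D2:**
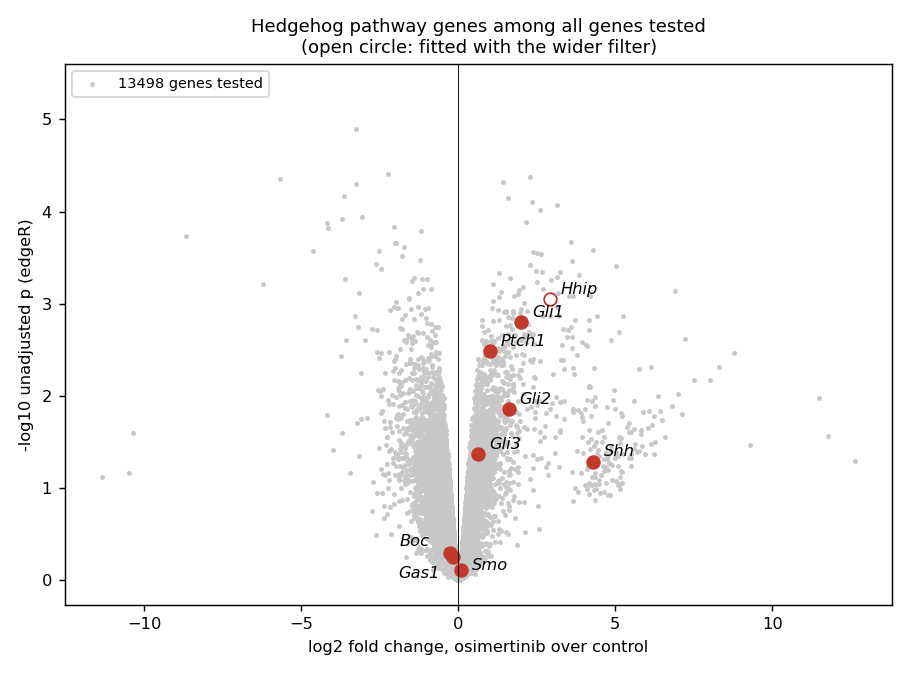
Log2 fold change, osimertinib over control (horizontal axis), against −log10 of the unadjusted edgeR p (vertical axis) for 13498 genes (grey) and the Hedgehog members (red, with Hhip open because it was fitted with the wider filter). Gli1, Hhip and Ptch1 sit among the genes with small p on the right side, Shh has the largest change of the members but a higher p, and Smo, Gas1 and Boc lie near 0.

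The order of the members by level differed between the groups. In controls the mean levels ran from Gas1 (22.7 FPKM) through Smo (8.69), Boc (5.99), Gli1 (2.10), Ptch1 (1.82), Gli2 (1.04), Gli3 (0.825) and Shh (0.369) to Hhip (0.130 FPKM). The library ranges of Smo and Boc overlapped, as did those of Gli1 and Ptch1, of Gli2 and Gli3, of Gli3 and Shh, and of Shh and Hhip. In treated skin the order was Gas1 (20.4 FPKM), Smo (9.40), Shh (9.28), Gli1 (9.07), Boc (5.06), Ptch1 (3.87), Gli2 (3.35), Gli3 (1.32) and Hhip (1.06 FPKM). Among neighbours in that order, the ranges of Gas1 and Smo, and of Gli2 and Gli3, did not overlap, and all other neighbours did. Shh had thus moved from the eighth place to the third, level with Smo and Gli1.

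The members that differed were highest in the same library. Osimertinib 2 held the highest level of Shh, Ptch1, Hhip, Gli1, Gli2 and Gli3, and osimertinib 1 the lowest treated level of each of these genes. Markers of the growing follicle varied between the libraries as well. The 5 hair matrix markers, among them Lef1, Hoxc13 and Krt35, were each higher in every treated library than in any control, and their summed level was 7.93, 28.8 and 10.7 FPKM in controls 1, 2 and 3 and 243, 683 and 198 FPKM in osimertinib samples 1, 2 and 3. Of the 4 dermal papilla markers, Corin, Alx4 and Rspo2 were higher in every treated library and the remaining one overlapped, with sums of 0.372 to 0.467 FPKM in controls and 2.08 to 2.98 FPKM in treated skin, and Rspo2 was at 0 counts in control 3. Osimertinib 2 had the highest hair matrix sum. That of control 2, the control with most Shh reads, was the highest of the controls. Most of it was Krt35, a keratin of the hair shaft (17.8 FPKM, against 0.112 and 0.117 FPKM in controls 1 and 3). Among the controls, every marker of this list but Hoxc13 was highest in control 2. Lef1, for example, was at 0.697 FPKM there, against 0.270 and 0.286 FPKM in controls 1 and 3. Hoxc13 was highest in control 3 (5.52 FPKM, against 3.65 FPKM in control 2). The dermal papilla sum of control 2 was the lowest of the controls (0.372 FPKM, against 0.467 and 0.376 FPKM in controls 1 and 3). Alx4 of that list was nevertheless highest in control 2 (0.201 FPKM, against 0.104 and 0.114 FPKM). The part of these follicle markers in the level of the Hedgehog genes was not tested, and in pieces of whole skin more cells of a kind and more RNA per cell cannot be told apart.

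**Figure D3:**
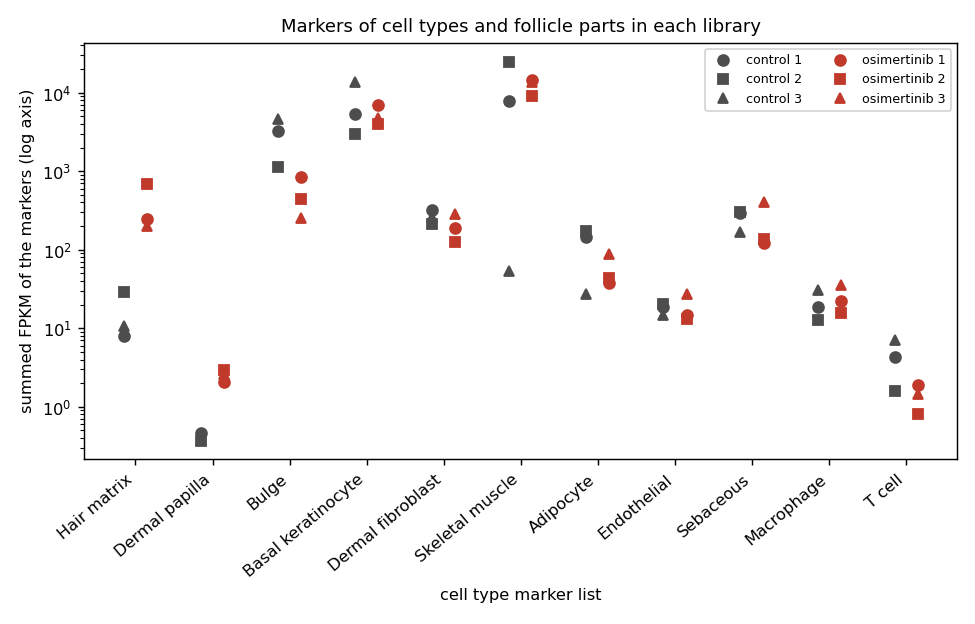
Summed FPKM of the marker genes of cell types and follicle parts (log axis) in each of the 6 libraries, controls in grey and osimertinib samples in red. The hair matrix and dermal papilla sums are higher in all treated libraries, the bulge sums are lower in all of them, and skeletal muscle is at 52.8 FPKM in control 3.

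Sums of 3 bulge markers (Krt15, Cd34 and Lgr5, genes of the resting follicle stem cell region) went the other way, with 1142 to 4586 FPKM in controls and 251 to 834 FPKM in treated skin, none at 0. Most of each sum was Krt15, at 1126 to 4562 FPKM in controls and 236 to 825 FPKM in treated skin. Krt15 and Cd34 were lower in every treated library, and Lgr5 overlapped. The sums of 5 dermal fibroblast markers overlapped, with 210 to 324 FPKM in controls and 125 to 286 FPKM in treated skin. The sums of 4 basal keratinocyte markers overlapped as well.

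In the wider pathway, 58 further genes were listed by role, of which 43 passed the filter on mean FPKM, 12 were fitted with filterByExpr only and 3 (Lrp2, Gpc5 and Foxf2) were too low to test. EdgeR called none of the 55 tested at an adjusted p under 0.05. At an unadjusted p under 0.05 in edgeR, 9 were higher and 4 lower, against a background of 7.22% higher and 6.73% lower among genes passing the FPKM filter. DESeq2 called 5 higher and 2 lower, against 3.41% and 2.95%. Among the genes kept by filterByExpr, from which 12 of the 55 come, the unadjusted shares were 6.92% higher and 6.17% lower and the DESeq2 shares 2.98% and 2.32%. Every treated library lay above every control in 10 of the 55 genes and below in 8, beside 11.3% and 9.38% of genes passing the FPKM filter and 10.6% and 9.92% of those kept by filterByExpr. The median log2 fold change was 0.01, with 29 positive and 26 negative values. The log2 fold changes above 2 belonged to Scube1, Scube3, Mycn and Foxe1. Scube3, Mycn and Foxe1 passed the FPKM filter only through their treated libraries, with control means of 0.193, 0.325 and 0.154 FPKM. The counts above therefore describe the listed genes and are not support for a shared change.

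Among the 5 genes of ligand acylation and release, Scube3 and Scube1 had the largest differences. Scube3, a secreted glycoprotein that helps to release lipid-modified Hedgehog, had 64, 170 and 107 counts in controls and 1000, 1227 and 1315 counts in treated skin (log2 fold change 3.13 ± 0.48, adjusted p = 0.152 in edgeR and 2.66e-07 in DESeq2). Its treated libraries lay close together and far above all controls. Its relative Scube1 went from 61, 74 and 56 counts to 282, 626 and 363 (2.52 ± 0.42, adjusted p = 0.151 in edgeR and 7.54e-06 in DESeq2). Their relative Scube2, named after its values were seen, overlapped between the groups, with 237, 95 and 180 counts against 94, 415 and 117 (0.13 ± 0.62, adjusted p = 0.975 in edgeR). Hhat, the enzyme that attaches palmitate to the ligand, and Disp1, the transporter that exports it, differed by 0.18 ± 0.35 and 0.12 ± 0.27, within their errors. All 5 genes of this list were on the positive side (median log2 fold change 0.18), but Hhat, Disp1 and Scube2 only within their errors. DESeq2 called 2 of the 5 higher, beside 3.41% of genes passing the FPKM filter and 2.98% of those kept by filterByExpr. Scube3 passed the FPKM filter only through its treated libraries.

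Of 6 further receptors and coreceptors listed, 4 were tested. Cdon, a coreceptor and a relative of Boc, was lower in each treated library, at 34.0, 26.9 and 41.8 CPM in the controls against 22.7, 10.6 and 17.2 CPM after osimertinib (−1.02 ± 0.32, adjusted p = 0.287 in edgeR and 0.0538 in DESeq2). The glypicans, heparan sulfate proteins of the cell surface, went in both directions, with Gpc4 at 0.46 ± 0.16 (adjusted p = 0.308 in edgeR and 0.0441 in DESeq2) and Gpc6 at −1.26 ± 0.41 (0.298 and 0.0623). Gpc3 overlapped between the groups (0.0648 ± 0.39), with control 1 as its highest library.

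Genes that restrain or degrade Gli proteins had small differences. Of 16 listed, 8 were positive and 8 negative with a median log2 fold change of −0.01. Neither edgeR nor DESeq2 called any at an adjusted p under 0.05. At an unadjusted p under 0.05 in edgeR, beside 7.22% of genes passing the FPKM filter, 2 of the 16 were higher. These were Sufu, the protein that holds Gli factors in the cytoplasm (16.8, 17.2 and 24.1 CPM in controls against 25.5, 34.2 and 29.7 CPM in treated skin, 0.62 ± 0.22), and Tulp3, which brings receptors into the cilium (0.64 ± 0.21). The kinesin Kif7, which organises the ciliary tip, differed by 0.83 ± 0.39, or by 0.52 without osimertinib 2, and the ubiquitin ligase subunit Btrc by −0.38 ± 0.19.

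Of 16 genes of Smo signalling at the cilium, 5 were positive and 11 negative, with a median of −0.10. DESeq2 called 1 of them, Arrb1, as lower, beside 2.95% of genes passing the FPKM filter. Arrb1, a beta-arrestin that can bind phosphorylated Smo, was at 92.4, 66.0 and 77.4 CPM in the controls against 49.0, 34.0 and 48.4 CPM after osimertinib (−0.84 ± 0.22, adjusted p = 0.246 in edgeR and 0.0103 in DESeq2). Its paralog Arrb2 had the opposite sign (0.61 ± 0.22), with each treated library above each control. The intraflagellar transport gene Ift172 and the ciliary GTPase Arl13b differed by −0.36 ± 0.15 and −0.99 ± 0.43, and the latter by −0.56 without control 1.

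Target genes outside the members included the other large differences. Mycn, a Myc family factor of proliferating cells, had 42, 141 and 32 counts in controls and 1214, 2252 and 1329 counts in treated skin (4.16 ± 0.77, adjusted p = 0.18 in edgeR and 2.76e-06 in DESeq2). Each treated library held more than 8 times the counts of the highest control. In CPM, the controls were at 0.504 to 3.12 and the treated libraries at 20.9 to 35.1. Foxe1, a forkhead factor of the hair follicle, had 7, 50 and 31 counts in controls and 227, 1434 and 256 counts in treated skin (4.15 ± 1.09, adjusted p = 0.253 in edgeR and 0.00105 in DESeq2), or 2.82 without osimertinib 2. Osr2, an odd-skipped factor of mesenchyme, was lower in each treated library (−0.98 ± 0.31, adjusted p = 0.287 in edgeR and 0.0428 in DESeq2). Snai1, a repressor of epithelial adhesion genes, had 121, 65 and 141 counts in the controls against 184, 203 and 466 after osimertinib (1.25 ± 0.46, adjusted p = 0.325 in edgeR and 0.111 in DESeq2), or 0.72 without osimertinib 3, its highest library. Of the 12 target genes tested, 9 lay above and 3 below 0 (median log2 fold change 0.22), and DESeq2 called 2 higher (Mycn and Foxe1) and 1 lower. Among all genes passing the FPKM filter, DESeq2 called 3.41% higher and 2.95% lower. Mycn and Foxe1 passed that filter only through their treated libraries.

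**Figure D4:**
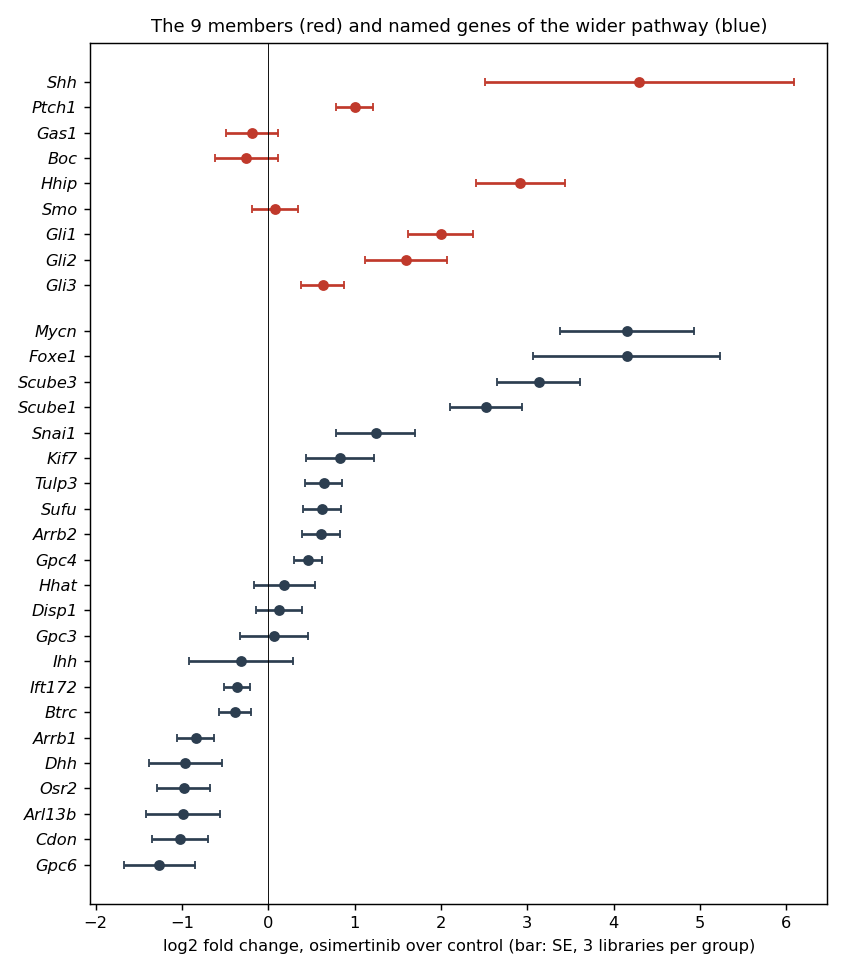
Log2 fold change, osimertinib over control, with its SE (horizontal bars, 3 libraries per group) for the 9 members (red) and the named genes of the wider pathway (dark blue). Shh, Mycn and Foxe1 have the largest positive values, from 4.15 to 4.30, and the lowest value is that of Gpc6, −1.26.

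**Figure D5:**
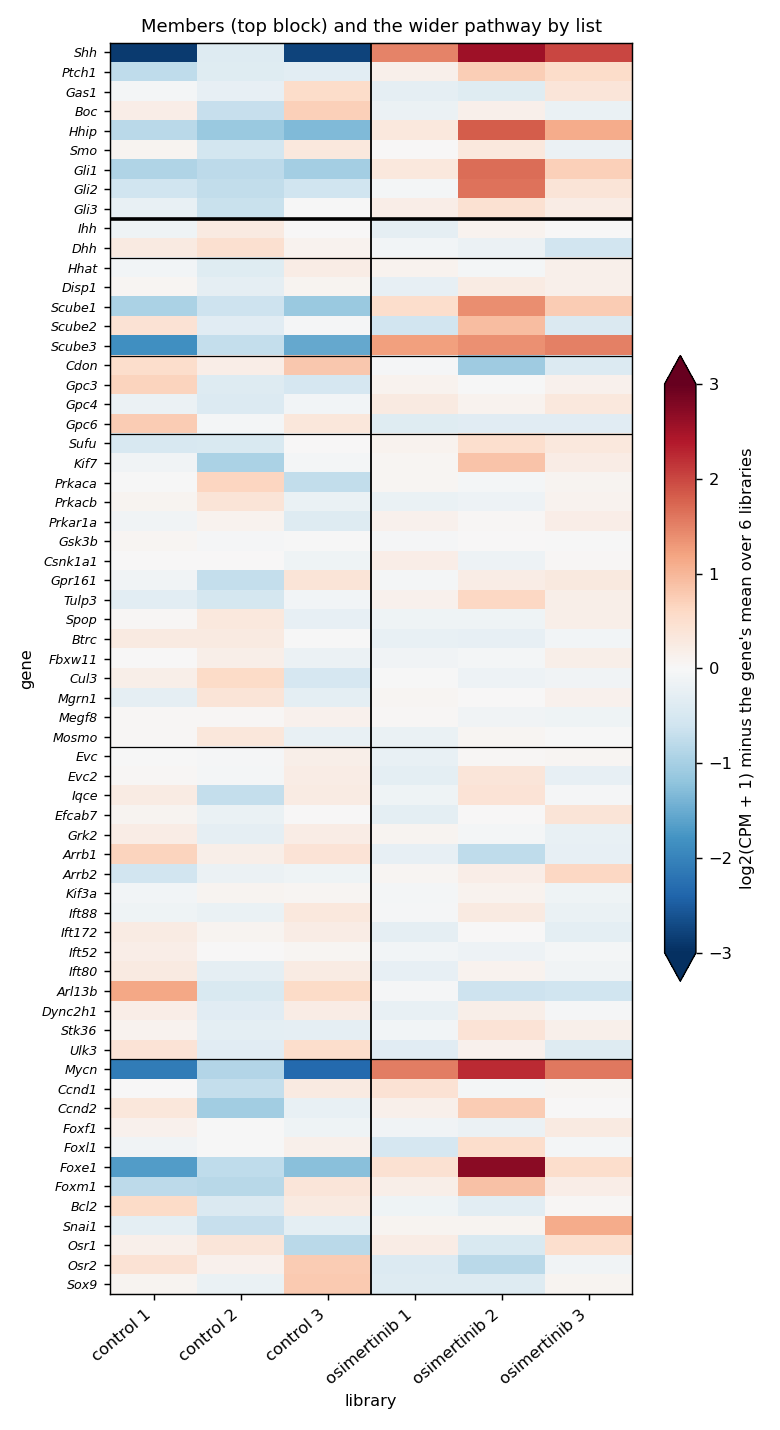
Log2(CPM + 1) minus each gene's mean over the 6 libraries (colour, cut at −3 and 3) for the 9 members in the top block and the 55 tested genes of the wider pathway by list below, with libraries in columns. Red cells in the 3 treated columns are concentrated in Shh, Hhip, Gli1, Gli2, Scube1, Scube3, Mycn and Foxe1, and most rows of the Gli restraint and cilium lists are pale.

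Ptch1, Hhip and Gli2 are the members with DESeq2 calls for which a promoter sequence was at hand, and the 250 bases before each RefSeq transcription start (GRCm38.p6, minus strand in each case, read 5′ to 3′ along the gene) are shown because these genes were higher in the same libraries. Capitals mark GC boxes, GGGCGG on either strand.
Ptch1, chr13:63565736-63565985: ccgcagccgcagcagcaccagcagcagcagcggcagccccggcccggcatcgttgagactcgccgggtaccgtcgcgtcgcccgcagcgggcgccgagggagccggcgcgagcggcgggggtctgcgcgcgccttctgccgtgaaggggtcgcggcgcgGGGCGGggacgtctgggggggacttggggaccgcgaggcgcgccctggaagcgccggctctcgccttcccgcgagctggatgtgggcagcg
Hhip, chr8:80058009-80058258: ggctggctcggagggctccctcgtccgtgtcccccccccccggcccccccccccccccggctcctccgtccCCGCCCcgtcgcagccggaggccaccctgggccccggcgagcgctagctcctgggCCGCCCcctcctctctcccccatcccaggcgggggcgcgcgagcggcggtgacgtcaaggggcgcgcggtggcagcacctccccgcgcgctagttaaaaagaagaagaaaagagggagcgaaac
Gli2, chr1:119053620-119053869: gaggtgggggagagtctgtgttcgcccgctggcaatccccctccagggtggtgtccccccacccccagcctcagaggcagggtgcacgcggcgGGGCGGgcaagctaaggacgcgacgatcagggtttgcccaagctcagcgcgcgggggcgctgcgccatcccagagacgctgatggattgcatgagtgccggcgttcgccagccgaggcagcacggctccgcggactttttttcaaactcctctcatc
The Ptch1 window lies inside the gene as the deposited table bounds it, ahead of a downstream start, and overlaps no annotated exon of the members. GC content was 78.4% in the Ptch1 window, 76% in that of Hhip and 67.2% in that of Gli2, beside a median of 52.4% over 32851 such windows. The GC box occurred 1 time in the Ptch1 and Gli2 windows and 2 times in that of Hhip, and 32.7% of all windows hold at least 1. The consensus to which Gli factors bind, GACCACCCA, searched on both strands, was in none of these windows, nor in those of Smo, Gas1 and Gli3, and 0.225% of all windows hold it. This says only that these letters are not in these windows. Shh, Gli1 and Boc had no entry.

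The genes whose log2(CPM + 1) followed that of Gli1 most closely over the 6 libraries were Dnajc7 (Pearson r = 0.999), Arg2 (0.998), Nkd2 (0.996), Cntfr (0.996) and Kif26a (0.995). Those closest to Shh were Psmb1 (r = 0.9998), Snrpd3 (0.997), Mrpl20 (0.996), Dynlt1-ps1 (0.996) and Uchl3 (0.995). These are descriptions of 6 points that share their libraries and fall into 2 groups, picked from all genes tested. Likeness here concerns the order and spacing of the libraries and not the size of a change: Arg2, the mitochondrial arginase, was at 1.48 to 1.94 CPM in the controls and 8.05 to 26.1 CPM after osimertinib, while Psmb1, a proteasome subunit, was at 179 to 207 CPM and 231 to 245 CPM.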

How the data were processed

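RNA-seq counts and FPKM for 6 mouse skin samples, 3 per group, came from 1 deposited table. Sample titles gave each sample's group and number. Per the labels' protocols, libraries were made from polyadenylated RNA with dUTP strand marking and molecular identifiers and sequenced in pairs. The submitters' processing notes name cutadapt 1.9 and build GRCm38; the aligner, the counter, the annotation and whether strand and identifiers were used were not stated there. The count columns hold whole-number counts that the authors deposited without normalization, and the FPKM values were computed by the authors, per the file headers. A further 6 value columns match no sample and were not used.

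Genes with a mean of at least 1 FPKM were tested with the quasi-likelihood test of edgeR 4.0.16 (R 4.3.3, TMM scaling, two-sided, Benjamini-Hochberg adjustment over all genes tested, threshold 0.05); named genes below that were taken from a fit of the genes kept by filterByExpr. SE values come from the log2 fold change and the F statistic. CPM values are scaled with TMM factors. DESeq2 1.42.0, limma 3.58.1 and other filters, scalings and covariates were alternatives, and edgeR, limma and DESeq2 were first tested on simulated data, where, in 1 simulated set, DESeq2 made more false calls than its threshold allows. Named genes are the 9 members, Sufu, Ihh, Dhh, up to 4 genes with the smallest p per pathway list, and the 5 genes most like Gli1 and Shh; at most 3 genes per marker list; the 3 untested genes are named as exceptions. Some listed genes are not reported here and were left out of the lists and their counts. Members and lists were chosen with earlier results of these data known. With 3 against 3 samples the smallest exact p of a single value is 0.1. Gene identifiers matched GENCODE M21 for 33211 of 33308 genes; promoter windows are RefSeq's for GRCm38.p6. A count of 0 allows up to 3 counts.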

Additional observations from a re-analysis of the deposited data

How the results depend on the processing

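Under each alternative that tested them, the log2 fold changes of Shh, Ptch1, Hhip, Gli1, Gli2 and Gli3 stayed positive; without 1 library they ranged from 3.69 to 9.74, 0.87 to 1.15, 2.43 to 3.25, 1.50 to 2.25, 0.90 to 1.91 and 0.47 to 0.81. The number of genes called was 858 with DESeq2, 17 and 2 with limma on log2(FPKM + 1) and log2(FPKM + 0.1), 3 with quantile normalization, 2 with a mean of at least 5 FPKM and 1 with the muscle score as covariate, against 0 in edgeR with all other settings. Of the 9 members DESeq2 called 4 and every other setting 0. The cause of these differences between tools was not tested. The median of the tested members, 0.82 over 8, was 0.57 with limma on log2(FPKM + 1), which shrinks low genes, 1.04 with no filter (9 members) and −0.0588 with a mean of at least 5 FPKM, which leaves 4 members; without 1 library it ranged from 0.70 to 0.94. Differences near 0 changed sign: Gas1 (0.0570) and Boc (0.153) with the muscle covariate, Disp1 (−0.0239) with quantile normalization, Gas1 (0.0889) and Boc (0.133) without control 3, Smo without control 2 (−0.118) or osimertinib 2 (−0.0702), Ihh without control 2 (0.0928) or osimertinib 1 (0.0164), and Gpc3 with the muscle covariate (−0.0905) and without control 2 (−0.0834) or control 3 (−0.153). Over all omissions of 1 library Gas1 ranged from −0.42 to 0.0889, Boc from −0.54 to 0.133, Smo from −0.118 to 0.29, Ihh from −0.66 to 0.0928 and Gpc3 from −0.153 to 0.60. DESeq2 also called Scube1, Scube3, Gpc4, Arrb1, Mycn, Foxe1 and Osr2, and limma on log2(FPKM + 1) called Mycn.

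The replicate numbers showed no clear pairing of the samples. Deviations from the group means correlated at 0.249, −0.0901 and −0.176 between samples numbered 1, 2 and 3. Between samples of unlike number they correlated at −0.2345 to 0.185. With 3 samples a group, these values cannot exclude a pairing. With the replicate block edgeR called 0 genes and 0 members, the members' median was 0.82, and Shh was at 6.97. Low counts limit the estimates for Shh in controls 1 and 3 (0 and 4 counts) and for the genes too low to test. Control 2 held 206 Shh counts at a similar library total (56739470, against 54112624 and 57174797 in controls 1 and 3). With 3 libraries a group, a difference that edgeR did not call is not shown to be absent.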

Other observations

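The level of the responsive genes relative to Smo can be set out within each library, since FPKM is per gene length. The ratio of Gli1 to Smo was 0.235, 0.406 and 0.184 in the 3 controls, in order of number, against 0.608, 1.27 and 0.906 in the osimertinib samples, without overlap. The ratio of Ptch1 to Smo was 0.165, 0.345 and 0.191 in controls and 0.336, 0.403 and 0.507 in treated skin, so control 2 lay above osimertinib 1. The ratio of Gli1 to Gli3, an activator to a gene acting mainly as repressor, was 2.53, 3.90 and 1.98 in controls and 4.49, 9.58 and 5.76 in treated skin, again without overlap. Such ratios show unequal levels of transcripts within a library and not which of them differs.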
